A study of Oryctolagus cuniculus with 6 samples.

Results

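The genes described here are those whose lowest transcript event lies from 32 to 42 Mb on rabbit chromosome 13. They number 224 assembled loci out of 15280, which combine to 216 genes out of 14797. Of these, 190 carry an Ensembl gene ID and 26 are loci without one. They were measured by RNA sequencing of bulk skin from 30-day-old rabbits (Oryctolagus cuniculus) in 3 libraries of genotype Prss53-/- and 3 wild-type libraries. The treatment label reads Crispr/Cas9 on all 6 samples, wild type included, and the labels used here give no strain, sex, targeted exon or number of founders. No label used here ties the 3 libraries of a genotype to 3 animals. The p-values therefore reflect the variation among the libraries at hand, and part of it may be technical. Within the window the members were chosen by position alone, but the window itself was selected on genotype differences in FPKM and in last-exon use seen earlier in these libraries. Counts of differing genes and forms in it, and the p-values beside them, are thus descriptions and support nothing further.

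Prss53 encodes a trypsin-like serine protease, and its human counterpart has been linked to hair shape. Genes that arose by duplication often lie side by side in mammalian genomes, and such clusters may be expressed together in 1 cell type or taken up gene by gene. Within a gene, alternative first exons reflect different transcription starts, alternative last exons reflect different 3′ ends or different splice sites into the last exon, and skipped exons or retained introns reflect splicing choices. The files pair no Ensembl ID with a gene name and none of the 12276 IDs in the series matched the RefSeq gene table. Genes are therefore given by ID and position, with no role, and neither Prss53 nor markers of skin cell types could be used to check the labels. Coordinates are those of the authors' files, whose genome build is not given in the sources used here.

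Levels are FPKM as deposited, that is fragments scaled by transcript length and library size, and a gene absent from a library's table is written as not listed. The tables hold no counts, so depth is unknown. Between 46368 and 49081 transcript events were listed per library. Knockout replicate 3 stood apart: its log2 values had Pearson correlations of 0.897 and 0.903 with the other knockout libraries, against 0.948 between those 2 and 0.949 to 0.953 among wild-type libraries (over 10809 genes, which are not replicates of each other). Relative to both other knockouts, on FPKM + 1, it lay 2-fold or more below at 2 of 165 tested window genes and above at 3, where the series had 656 and 90 of 10809. Its low deviations were thus few in the window, while its high ones were not fewer by share than in the series. The 3 genes above were ENSOCUG00000025593, XLOC_012408 and ENSOCUG00000001383.

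The window was uneven in both gene number and level. The 3 Mb from 33 to 36 Mb held 27 genes, 12 of them tested, and its widest gaps were 625537 bases after ENSOCUG00000002338 and 493158 bases after ENSOCUG00000024795. The 1 Mb from 36 Mb held 37 genes and the 1 Mb from 38 Mb held 33. Most of the RNA came from 38 to 41 Mb: the 1 Mb bins starting at 38, 39 and 40 Mb gave 26.6%, 14.5% and 32.6% of the mean summed FPKM of the window. The highest gene alone gave 23.0% of that sum and the 10 highest gave 57.9%. Among tested genes 16 of 165 (9.70%) had a mean over 100 FPKM, against 9 of 639 (1.41%) on the rest of chromosome 13 and 302 of 10809 (2.79%) in the whole series. The median tested gene had 10.3 FPKM in the window, against 7.50 FPKM on the rest of the chromosome and 7.67 FPKM in the series.

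The window took 2.36, 2.83 and 3.67% of all summed FPKM in the knockout libraries, against 2.88, 2.70 and 3.03% in the wild-type libraries. The groups overlapped, and the lowest and the highest value were both knockout libraries. Without 2 genes, ENSOCUG00000005205 and ENSOCUG00000025593, the shares were 2.10, 1.87 and 2.34% in knockout libraries, against 2.10, 2.12 and 2.17% in wild-type libraries. In the bin from 38 to 39 Mb every knockout library, at 2121, 1925 and 2619 summed FPKM, lay above every wild-type library, at 1829, 1803 and 1684 summed FPKM. Without its most abundant gene, ENSOCUG00000008647, the bin had 1426, 1377 and 1746 summed FPKM in knockout libraries, against 1450, 1514 and 1297 summed FPKM in wild-type libraries, and the groups overlapped. In bulk skin, fewer or more cells of a type and less or more RNA per cell cannot be told apart.

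**Figure D1:**
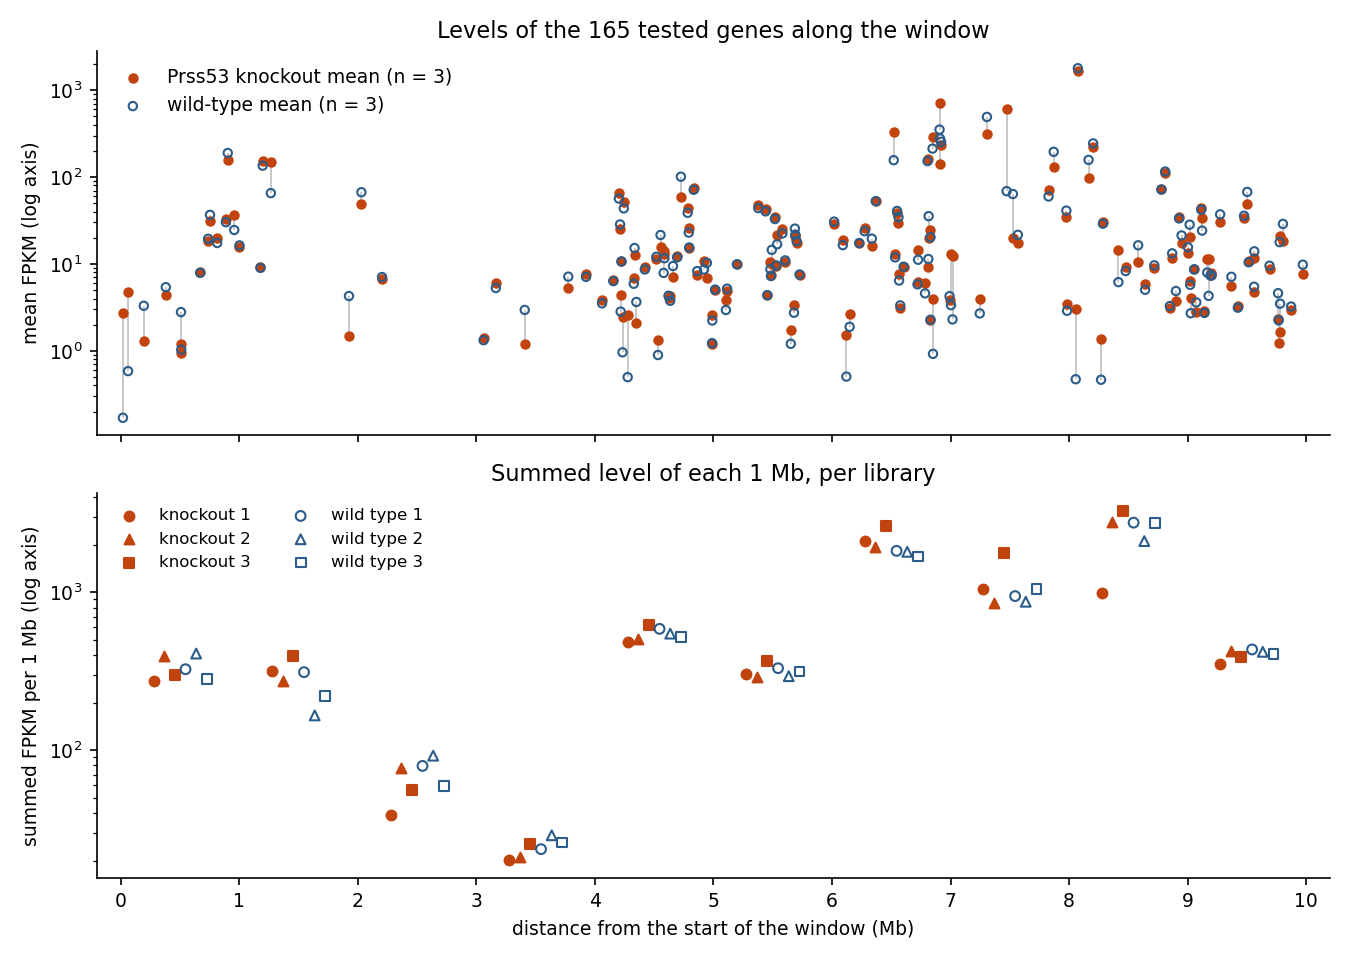
Mean FPKM of each of the 165 tested genes (upper panel, log axis; filled, Prss53 knockout; open, wild type; 3 libraries each) and summed FPKM per 1 Mb bin in each library (lower panel, log axis), against distance from the start of the window in Mb. Levels are highest from 6 to 9 Mb into the window, and knockout replicate 1 lies lowest in the bin that holds ENSOCUG00000005205.

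The most abundant gene was ENSOCUG00000005205 (40074551 to 40083305, plus strand). It had 290, 2219 and 2458 FPKM in knockout libraries, against 1968, 1392 and 2007 FPKM in wild-type libraries. Of its 12 events 11 were each listed in a single library, and its first exon, listed in all 6, set the level in each. Knockout replicate 1 alone was low, below every other library, and the groups overlapped. A 113-base locus on the opposite strand inside it, ENSOCUG00000029506 (40080669 to 40080781), was listed in that library alone, at 97.3 FPKM. The gene's log2 fold change was -0.60 ± 0.77 (SE), with an adjusted p of 0.729 (limma). The next gene to the right, ENSOCUG00000004732 (40084159 to 40106704), was listed in no knockout library and had 6.56 and 15.05 FPKM in wild-type replicates 1 and 3. Farther right, ENSOCUG00000005198 (40203415 to 40206677) had 188, 179 and 298 FPKM in knockout libraries, against 250, 255 and 227 FPKM in wild-type libraries.

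Of the 15 most abundant genes, 8 had overlapping groups. ENSOCUG00000003371 (40811374), at 101 to 131 FPKM in knockout and 97.1 to 135 FPKM in wild-type libraries, had a log2 fold change of -0.04 ± 0.19. ENSOCUG00000005430 (38806289), at 142 to 180 FPKM in knockout and 141 to 165 FPKM in wild-type libraries, had one of 0.09 ± 0.16. ENSOCUG00000002745 (38848520) had 267, 249 and 361 FPKM in knockout libraries, against 172, 208 and 257 FPKM in wild-type libraries, and the groups overlapped by 1 library on each side. ENSOCUG00000009959 (32901407) and ENSOCUG00000022296 (33196423) varied more within each genotype than between them, at 131 to 211 and 137 to 185 FPKM in knockout libraries, against 137 to 265 and 91.0 to 166 FPKM in wild-type libraries.

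Genotypes were compared for the 165 genes that reached 1 FPKM in 3 or more libraries, in a limma fit of log2(FPKM + 1) over all 10809 genes of the series that passed the same filter. In the window 4 genes passed an adjusted p of 0.05, all higher in knockout libraries, where 0.944% of all tested genes passed, 0.546% as higher and 0.398% as lower. Groups did not overlap at 36 genes (21.8%), 19 higher and 17 lower in knockout libraries, where the series had 26.1% in all, 9.50% higher and 16.6% lower. An unadjusted p under 0.05 was reached by 31 genes (18.8%), 16 higher and 15 lower, where the series had 16.2%. Of the 165 fold changes 85 were positive and 80 negative. Their median was 0.01 on the log2 scale, against -0.07 over all tested genes, and their median size 0.23, against 0.25. Fold changes on this scale understate the change of low genes.

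**Figure D2:**
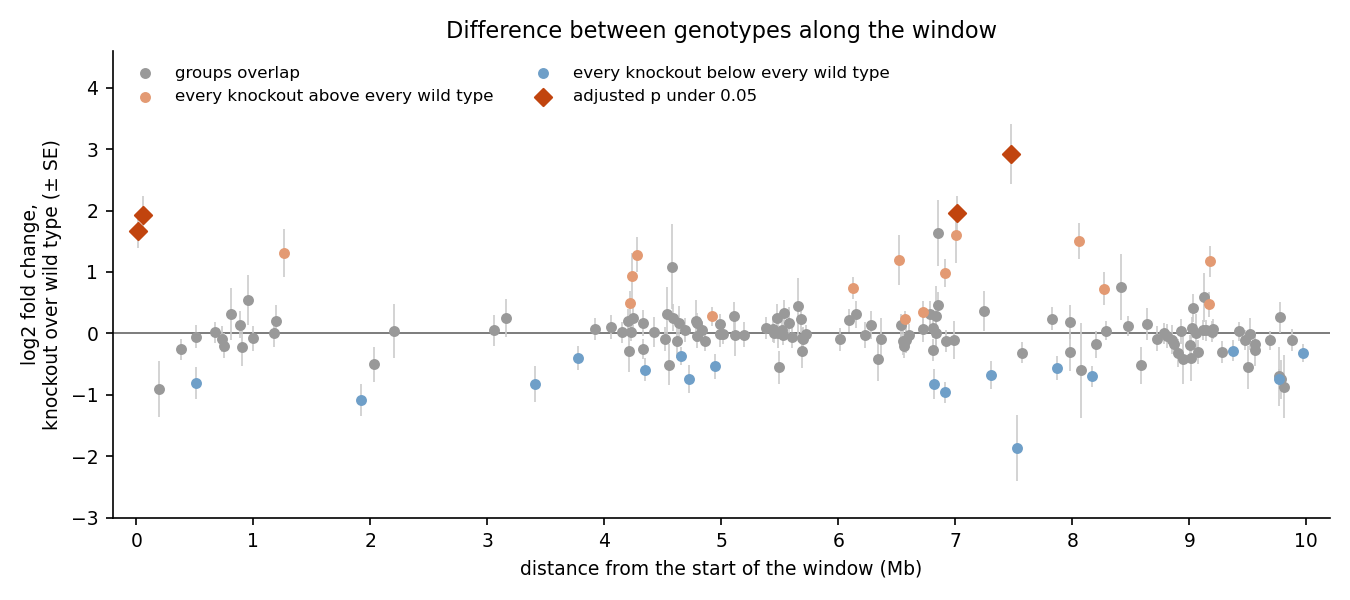
Log2 fold change of FPKM + 1, Prss53 knockout over wild type, for each of the 165 tested genes against distance from the start of the window in Mb, with bars of 1 SE. The 4 genes with an adjusted p under 0.05 (diamonds) lie at the left end and near 7 to 7.5 Mb, and higher and lower genes are interspersed along the rest.

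The most abundant of the 4 genes that passed was ENSOCUG00000025593, which has a locus on each strand between 39473515 and 39477527. Together the loci had 355, 337 and 1115 FPKM in knockout libraries, against 82.8, 46.3 and 77.2 FPKM in wild-type libraries. Every knockout library lay above every wild-type library, and knockout replicate 3 was about 3 times as high as the other knockout libraries. The log2 fold change was 2.92 ± 0.48 (SE), with an adjusted p of 0.0483 by limma. Without knockout replicate 3 it was 2.36 ± 0.27, with an adjusted p of 0.0324. Leaving out any other library ended the call, with adjusted p values up to 0.212.

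The strands differed in size. The plus-strand locus (39473515 to 39476159) had 88.1, 102 and 129 FPKM in knockout libraries, against 4.98, 0.551 and 1.03 FPKM in wild-type libraries. Here the 3 knockout libraries were close together, replicate 3 included. Its log2 fold change, in a fit over 10899 single loci of which 1.03% passed, was 5.32 ± 0.48, with a limma adjusted p of 0.00472. The minus-strand locus (39474282 to 39477527) had 267, 235 and 986 FPKM in knockout libraries, against 77.8, 45.8 and 76.2 FPKM in wild-type libraries, with a log2 fold change of 2.59 ± 0.54 and an adjusted p of 0.0971. It was the minus-strand locus that set knockout replicate 3 apart. The loci overlap over most of their length and no source used here says that fragments were counted by strand, so reads of one and of the other cannot be told apart.

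ENSOCUG00000022646 (39016888 to 39018876, plus strand) had 10.3, 18.1 and 8.34 FPKM in knockout libraries, against 2.62, 1.70 and 2.58 FPKM in wild-type libraries. All knockout libraries lay above all wild-type libraries, and the wild-type values were close together. The log2 fold change was 1.95 ± 0.29, with an adjusted p of 0.0364 (limma). Its neighbour on the left, ENSOCUG00000009566 (39004122 to 39005042, plus strand), ends 11845 bases before it and followed the same order within the knockout group. It had 10.9, 21.6 and 6.37 FPKM in knockout libraries, against 3.58, 1.72 and 4.76 FPKM in wild-type libraries. Its log2 fold change of 1.59 ± 0.44 did not pass, at an adjusted p of 0.164. ENSOCUG00000022646 kept its call without knockout replicate 3, at 2.17 ± 0.27 with an adjusted p of 0.0393, and lost it without any other library when the filter was applied anew, with adjusted p values up to 0.180.

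The other pair lies at the left edge of the window. ENSOCUG00000024275 (32016935 to 32085067, plus strand) had 1.98, 2.32 and 3.86 FPKM in knockout libraries, against 0.509 FPKM in wild-type replicate 1 and no listing in the other wild-type libraries. ENSOCUG00000022033 (32060277 to 32077044), on the same strand and wholly within its span, had 4.40, 4.35 and 5.39 FPKM in knockout libraries. In wild-type libraries it had 1.31 FPKM, no listing and 0.439 FPKM. Neither gene overlapped between genotypes. The log2 fold changes were 1.66 ± 0.27 and 1.93 ± 0.31, with limma adjusted p values of 0.0472 and 0.0460. Both calls rest on levels of a few FPKM: with the filter applied anew ENSOCUG00000022033 passed in none of 6 fits that left out 1 library (adjusted p 0.0554 to 0.173), and ENSOCUG00000024275 in none of the 3 in which it was tested (0.0830 to 0.212). With the same genes tested, ENSOCUG00000022033 passed without wild-type replicate 1, at an adjusted p of 0.0355.

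The events behind this pair were not the same in both genotypes. The last exon of ENSOCUG00000024275 at 32084671 to 32085067 carried the whole level of each knockout library, while wild-type replicate 1 used a last exon at 32026297 to 32026449. ENSOCUG00000022033 had a first exon at 32060277 to 32060420, at 1.75, 2.62 and 3.23 FPKM in knockout libraries, against 1.31 FPKM in wild-type replicate 1 and no listing in the others. A last exon at 32062703 to 32064617 was listed in wild-type replicates 1 and 3 only, at 0.583 and 0.439 FPKM. Since the genes share strand and span, the assembly may divide 1 set of reads between them, and their levels are uncertain as separate values.

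**Figure D3:**
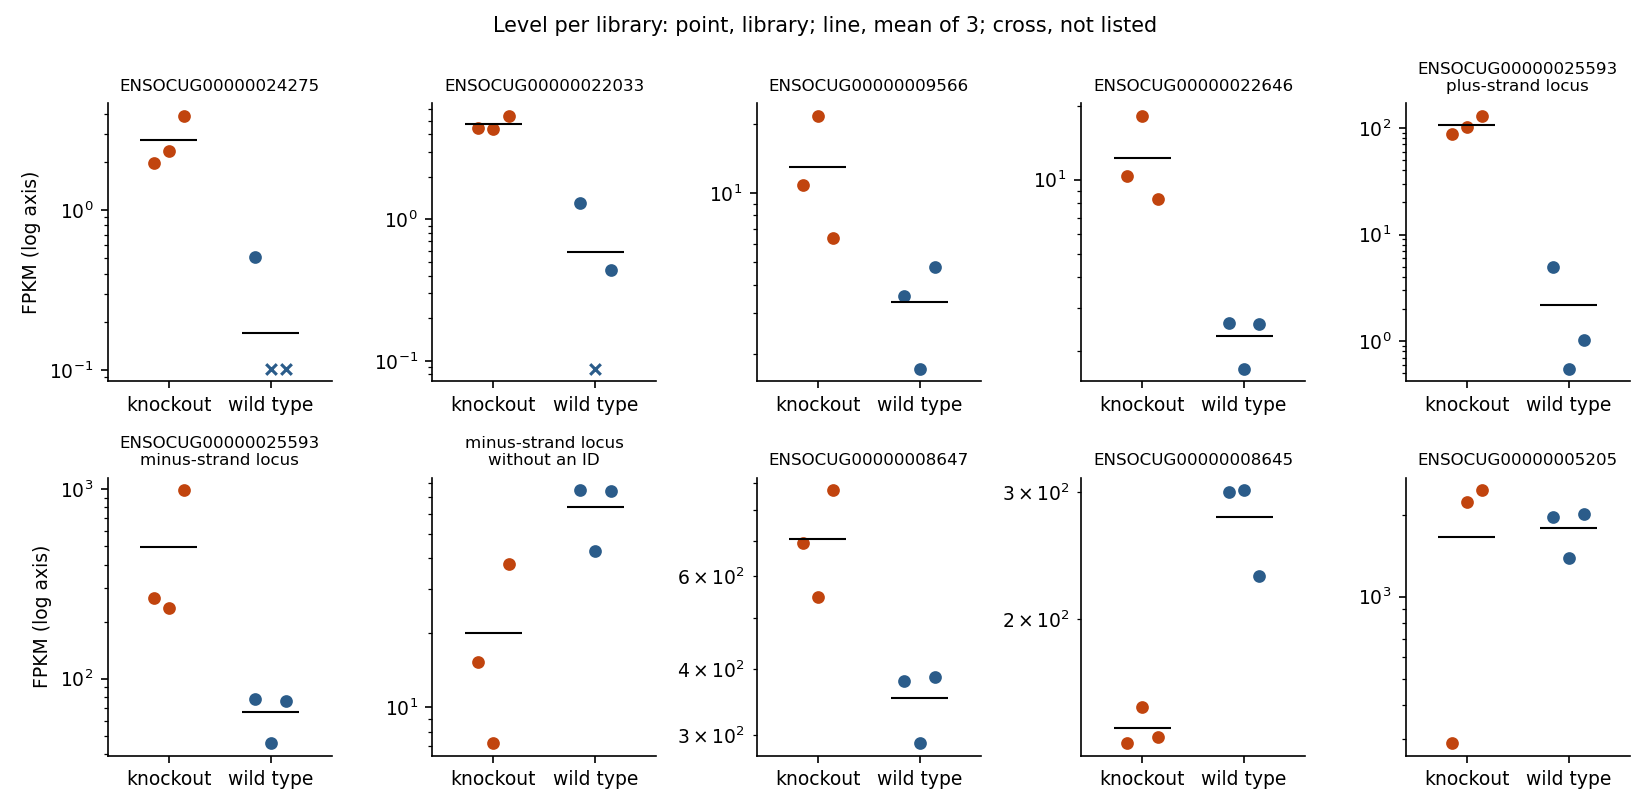
FPKM per library (log axes, 1 point per library; line, mean of 3 with a library that does not list the gene at 0; cross, not listed, placed at an arbitrary low height) in Prss53 knockout (left in each panel) and wild type (right). ENSOCUG00000008647 and ENSOCUG00000008645, which lie 1060 bases apart, stand in opposite order, and 1 knockout library is low at ENSOCUG00000005205.

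Among the abundant genes of the 38 to 39 Mb bin, neighbours on 1 strand stood in opposite order. ENSOCUG00000008647 (38907398 to 38910127, plus strand), the second most abundant gene of the window, had 695, 547 and 873 FPKM in knockout libraries, against 379, 289 and 387 FPKM in wild-type libraries. ENSOCUG00000008645 (38911188 to 38913909, plus strand), which begins 1060 bases after its end, had 135, 151 and 137 FPKM in knockout libraries, against 301, 302 and 230 FPKM in wild-type libraries. No library of one genotype reached the other at either gene. The log2 fold changes were 0.99 ± 0.22 and -0.96 ± 0.17, and neither passed, at limma adjusted p values of 0.114 and 0.0623. With library quality weights, under which 220 of 10809 genes of the series passed, ENSOCUG00000008645 passed. The next tested gene on the right, ENSOCUG00000024096 (38920212 to 38921132), had 226, 198 and 285 FPKM in knockout libraries, against 264, 263 and 237 FPKM in wild-type libraries, and its groups overlapped.

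The other large differences without overlap did not pass the test either. ENSOCUG00000011792 (38520935 to 38525936) had 314, 294 and 370 FPKM in knockout libraries, against 184, 216 and 69.5 FPKM in wild-type libraries, with a log2 fold change of 1.20 and an adjusted p of 0.228. Wild-type replicate 3 was the low library there. ENSOCUG00000002342 (33265365 to 33280297) had 155, 117 and 173 FPKM in knockout libraries, against 110, 47.8 and 38.1 FPKM in wild-type libraries, with a log2 fold change of 1.30 and an adjusted p of 0.182. Here 1 wild-type library came near the knockout range. ENSOCUG00000014955 (41177541 to 41192018) had 14.7, 7.40 and 11.8 FPKM in knockout libraries, against 4.78, 3.84 and 4.26 FPKM in wild-type libraries, with a log2 fold change of 1.17 and an adjusted p of 0.101. ENSOCUG00000016365 (38121166) had 1.48, 1.75 and 1.33 FPKM in knockout libraries, against 0.572, 0.546 and 0.397 FPKM in wild-type libraries.

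On the lower side the largest fold change among genes without overlap, on the log2(FPKM + 1) scale, was at XLOC_012408, a minus-strand locus without an ID (39526278 to 39535059) to the right of ENSOCUG00000025593. It had 15.2, 7.20 and 37.7 FPKM in knockout libraries, against 74.7, 42.7 and 74.1 FPKM in wild-type libraries. The groups stayed apart by a narrow margin, set by knockout replicate 3 and wild-type replicate 2. The log2 fold change was -1.87 ± 0.54, with an adjusted p of 0.171, and -2.45 ± 0.37 with 0.0735 without knockout replicate 3. ENSOCUG00000010011 (36725110 to 36745444) had 50.2, 66.7 and 60.0 FPKM in knockout libraries, against 101, 126 and 75.5 FPKM in wild-type libraries, with a log2 fold change of -0.74 and an adjusted p of 0.190. ENSOCUG00000002756 (38815282 to 38829873) had 23.4, 22.1 and 14.0 FPKM in knockout libraries, against 29.0, 35.7 and 41.8 FPKM in wild-type libraries, at -0.83 and an adjusted p of 0.171.

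Lower genes of a few FPKM completed the list. ENSOCUG00000022947 (33924333) had 2.13, 1.19 and 1.10 FPKM in knockout libraries, against 5.96, 3.27 and 3.58 FPKM in wild-type libraries. ENSOCUG00000009044 (41763790) had 2.73, 2.07 and 2.24 FPKM in knockout libraries, against 4.36, 5.10 and 4.36 FPKM in wild-type libraries. ENSOCUG00000022552 (32506976) and ENSOCUG00000026714 (35407393) had log2 fold changes of -0.81 and -0.82. The adjusted p values of these 4 genes lay between 0.108 and 0.246.

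Neighbouring genes shared a sign about as often as not. Of 164 pairs of adjacent tested genes 85 (51.8%) had fold changes of the same sign, where 4403 of 7838 adjacent pairs (56.2%) did over all chromosomes. Across those 164 pairs, which share libraries and whose members recur in 2 pairs each, the fold changes correlated at r = 0.02 (Spearman rho = 0.08), against r = 0.11 (rho = 0.13) over all chromosomes. The 19 window pairs with overlapping spans had r = 0.43 and rho = 0.14, with 10 pairs of the same sign, and the 145 pairs with spans apart had r = -0.04. The larger r of the overlapping pairs was not carried by the ranks.

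Runs of at least 4 tested neighbours on 1 side numbered 12, with no count over the rest of the series to set beside them. The longest had 8 genes, all lower in knockout libraries, from ENSOCUG00000003267 to ENSOCUG00000027251 (41477052 to 41773393). Its median log2 fold change was -0.22, its members ran from -0.75 at ENSOCUG00000009044 to -0.01 at ENSOCUG00000000927, and the groups did not overlap at 1 of the 8. Within this run ENSOCUG00000011786 (41563380 to 41586329) lies wholly inside ENSOCUG00000011770 (41561587 to 41689593) on the same strand. Their levels are thus uncertain as separate values. A run of 7 higher genes from ENSOCUG00000024314 to ENSOCUG00000003642 (41115917 to 41234285) had a median of 0.08, with no overlap at ENSOCUG00000004694 and ENSOCUG00000014955. A run of 6 higher genes from ENSOCUG00000001460 to ENSOCUG00000025781 (36216529 to 36333442) had a median of 0.37. Its largest member was ENSOCUG00000026133 (36275821), with 2.53, 1.92 and 3.26 FPKM in knockout libraries, against 0.867 FPKM, no listing and 0.627 FPKM in wild-type libraries. None of the genes in these 3 runs passed the test.

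Runs counted on groups that do not overlap were shorter. There were 4, each of 2 genes: the pairs that begin at 32016935 and 39004122, described above, ENSOCUG00000004694 with ENSOCUG00000014955, and, lower in knockout libraries, ENSOCUG00000026714 with XLOC_012331 (35774713 to 35803502). ENSOCUG00000004694 (41166412 to 41178878) and ENSOCUG00000014955 overlap on opposite strands. ENSOCUG00000004694 had 11.1, 9.31 and 14.1 FPKM in knockout libraries, against 8.37, 6.51 and 8.97 FPKM in wild-type libraries.

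Forms were compared as shares of a locus's FPKM. In the window 318 elements at 88 loci were tested: 138 first exons, 64 last exons, 50 skipped exons and 66 retained introns. An adjusted p of 0.05 was passed by 2 of them (0.629%), where 0.675% of all 16305 elements passed. The groups did not overlap at 28 (8.81%), where the series had 8.91%, and 16 (5.03%) had an unadjusted p under 0.05, where the series had 6.61%. Shares of a locus's first exons sum to the whole, as do those of its last exons. A locus with 2 such forms thus enters as 2 elements with mirrored values, and these counts are not of separate differences. Several first exons were listed at 69 loci and several last exons at 30, with as many as 13 last exons at XLOC_011453 (39977548 to 39987218, plus strand).

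The larger form difference was at the minus-strand locus of ENSOCUG00000025593. A last exon of 960 bases (39474282 to 39475241) had a share of 0% in each of the 3 knockout libraries, against 100, 100 and 82.3% in wild-type libraries. The difference was -94.1 percentage points ± 5.67 (SE), with a limma adjusted p of 0.00411. It passed in each of 6 fits that left out 1 library (largest adjusted p 0.0321). The window was selected partly on last-exon use in these same libraries, so neither the p nor these fits are independent support. In place of the 960-base exon, knockout libraries listed shorter last exons with the same outer end at 39474282. One of 759 bases had shares of 51.6, 77.8 and 44.3% in knockout libraries, one of 714 bases had 45.3, 12.6 and 20.1%, and both were at 0% in every wild-type library.

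In FPKM the 960-base exon was listed in no knockout library and had 77.8, 40.0 and 51.5 FPKM in wild-type libraries. The 759-base exon had 138, 183 and 437 FPKM in knockout libraries and the 767-base exon 8.34, 22.7 and 229 FPKM. The inner end of the 767-base exon, 39475048, is also the end of a 224-base first exon of the plus-strand locus (39474825 to 39475048). That first exon had 88.1, 102 and 129 FPKM in knockout libraries and was listed in no wild-type library. Each wild-type library listed a plus-strand first exon that began 12 bases further on, at 39474837, with no more than 2.70 FPKM. The single first exon of the minus-strand locus (39477329 to 39477527) was the same in all 6 libraries.

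**Figure D4:**
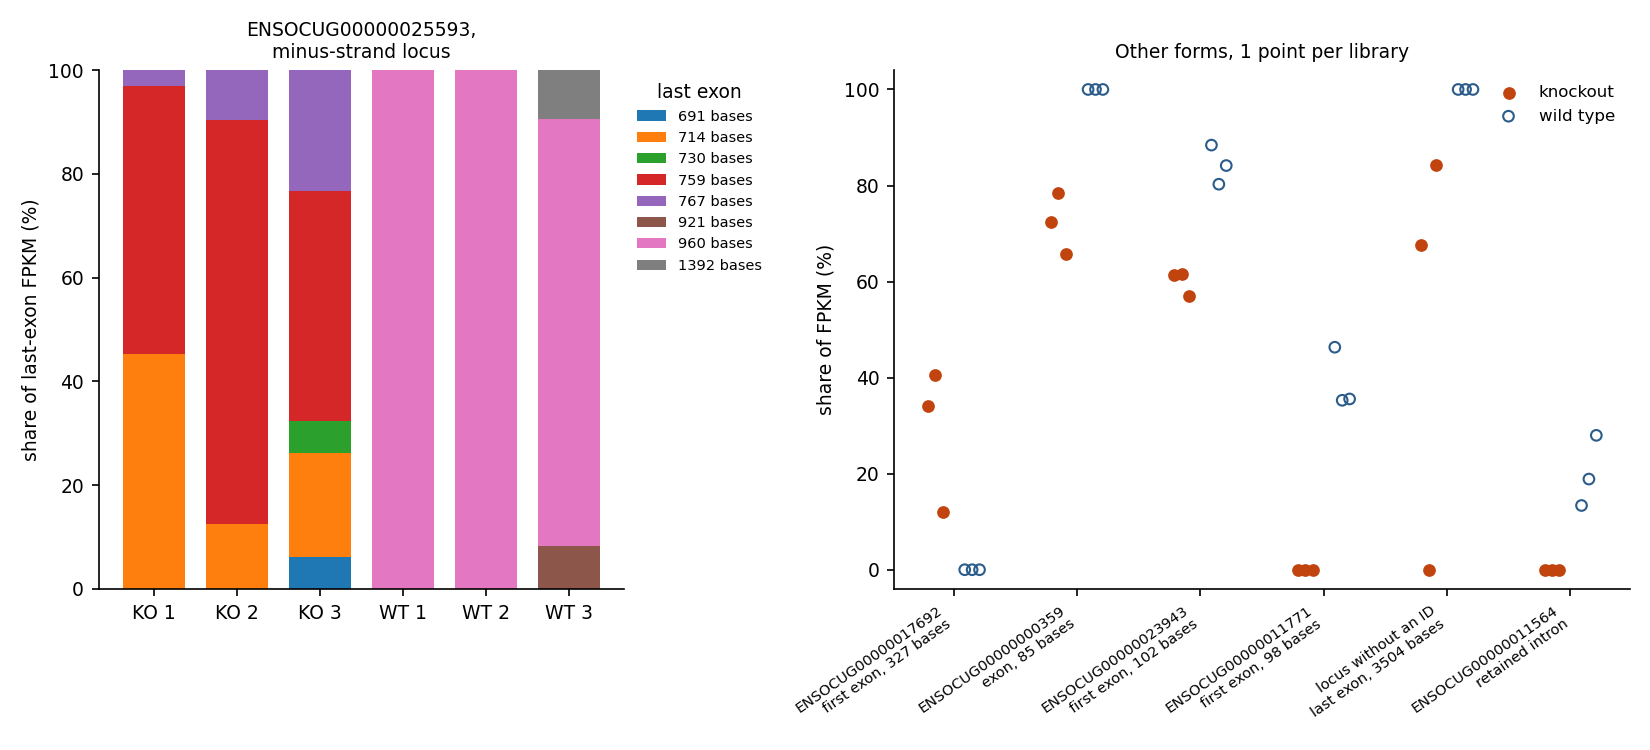
Left, share of last-exon FPKM (%) of each last exon, named by its length in bases, at the minus-strand locus of ENSOCUG00000025593 in each library. Right, share of FPKM (%) of 6 other forms, 1 point per library (filled, Prss53 knockout; open, wild type). The 960-base last exon takes 0% in each knockout library and 82.3% or more in each wild-type library.

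The other element that passed was a first exon of 98 bases (38578667 to 38578764) of ENSOCUG00000011771. Its share was 0% in each of the 3 knockout libraries, against 46.3, 35.3 and 35.6% in wild-type libraries, a difference of -39.1 points ± 4.11 with a limma adjusted p of 0.0248. The first exons of this locus summed to 2.03 to 3.31 FPKM per library, so the share rests on 0.808 to 1.53 FPKM in wild-type libraries. It passed in none of 6 fits that left out 1 library, with adjusted p values of 0.0535 to 0.101.

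Further elements had groups apart without passing. At ENSOCUG00000017692 a downstream first exon of 327 bases (32833320 to 32833646) had 34.1, 40.6 and 12.0% in knockout libraries and 0% in each wild-type library. At ENSOCUG00000023943 a first exon of 102 bases (38335723 to 38335824) had 61.3, 61.5 and 57.0% in knockout libraries, against 88.4, 80.3 and 84.2% in wild-type libraries, with an adjusted p of 0.0790. At ENSOCUG00000000359 an exon of 85 bases (37444130 to 37444214) was included in 72.5, 78.5 and 65.6% in knockout libraries, against 100% in each wild-type library, with an adjusted p of 0.0826. The retained form of an intron of ENSOCUG00000011564 (40853354 to 40853536) had 0% in each knockout library, against 13.4, 18.9 and 28.0% in wild-type libraries. Those shares rest on 0.461, 0.639 and 1.16 FPKM.

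XLOC_012408 also had last exons listed unevenly. A last exon of 1937 bases (39530203 to 39532139) was listed in each knockout library, at 2.06, 0.959 and 5.92 FPKM, and in no wild-type library. The last exon of 3504 bases that shares its start had shares of 67.6, 0 and 84.3% in knockout libraries, against 100% in each wild-type library, which did not pass, at a limma adjusted p of 0.695. Knockout replicate 2, which had the lowest level, listed neither the longer exon nor a first exon. Of its 7.20 FPKM, 6.24 FPKM lay on a last exon of 2506 bases (39526278 to 39528783). That exon had 2.87 FPKM in knockout replicate 1 and was listed in no other library.

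Where each transcript is listed with both ends, first exons and last exons of a locus carry the same total. The totals were equal within 0.1% in all 6 libraries at 38 of 88 window loci with at least 5 FPKM of last exons in every library, against 2211 of 4430 in the series. ENSOCUG00000005202 (40164737 to 40169776, plus strand) departed from this in the knockout libraries. Its first exon (40164737 to 40164890) had 21.7, 22.4 and 30.9 FPKM in knockout libraries, against 169, 154 and 149 FPKM in wild-type libraries. Its last exon (40169615 to 40169776) had 93.0, 85.8 and 113 FPKM in knockout libraries, against 170, 154 and 149 FPKM in wild-type libraries. The first exon thus carried 23.4, 26.1 and 27.4% of the last in knockout libraries, against 99.9% in each wild-type library.

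By a threshold chosen after the values were seen (under 50% in each library of 1 genotype and at least 90% in each of the other), ENSOCUG00000005202 was the only window locus of the 88, and 2 loci of 4430 in the series met it as low in knockout libraries and 2 as low in wild-type libraries. As a gene level, the largest of its sums, ENSOCUG00000005202 had a log2 fold change of -0.70 ± 0.16 with a limma adjusted p of 0.124. With first-exon sums in place of gene levels it passed, together with ENSOCUG00000022646, ENSOCUG00000021424, ENSOCUG00000024096 and ENSOCUG00000025691. These were 5 of 151 window genes tested so, where 120 of 9652 passed in the series. No wild-type library listed a first exon of ENSOCUG00000021424, and no knockout library one of ENSOCUG00000025691. The gene levels of these 2 overlapped between genotypes, with log2 fold changes of -0.20 and 0.23, opposite in sign to their first-exon sums. ENSOCUG00000024096 had a 35-base first exon (38920212 to 38920246) that no knockout library listed and that had 92.4, 53.0 and 48.6 FPKM in wild-type libraries, while its gene level overlapped between genotypes.

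ENSOCUG00000026830 has overlapping loci on both strands (39307372 to 39399125) and, with 366, 228 and 342 FPKM in knockout libraries against 421, 500 and 556 FPKM in wild-type libraries, was the third most abundant gene. Its log2 fold change of -0.68 ± 0.23 did not pass, at a limma adjusted p of 0.223. None of its 33 events was listed in all 6 libraries. Its plus-strand locus (39397514 to 39398388) was listed in no knockout library and had 0.678, 130 and 102 FPKM in wild-type libraries. The minus-strand locus alone had 366, 228 and 342 FPKM in knockout libraries, against 420, 370 and 454 FPKM in wild-type libraries. Its log2 fold change was -0.43 ± 0.22, with a limma adjusted p of 0.375. Knockout replicate 1 listed no first or last exon of the minus-strand locus, so its 366 FPKM there came from another event. A first exon of 100 bases (39398984 to 39399083) was listed only in knockout replicates 2 and 3 and wild-type replicate 2. On the minus strand a last exon of 332 bases (39397287 to 39397618) had 348, 300 and 313 FPKM in wild-type libraries. It was listed in 1 knockout library, replicate 2, at 13.9 FPKM. A last exon at the far left end (39307372 to 39307884) was listed in knockout replicates 2 and 3 only, at 103 and 270 FPKM. ENSOCUG00000011836, with loci on both strands from 39870710, had 149, 113 and 132 FPKM in knockout libraries, against 217, 158 and 211 FPKM in wild-type libraries, an adjusted p of 0.230. For both genes the levels of each strand are uncertain for the reason given above.

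Listing itself was compared as a description. In the window 162 of 216 genes (75.0%) were listed in all 6 libraries and 24 in only 1. No window gene was listed in all libraries of one genotype and none of the other. Such genes were rare in the series too, 72 of 14797 for knockout and 75 of 14797 for wild type, so 0 of 216 is no contrast. Before loci with the same ID were added, the plus-strand locus of ENSOCUG00000026830 was so listed for wild type. Single events did divide: 58 of 1731 window events (3.35%) were listed in all 3 knockout libraries and no wild-type library, where 0.817% of all 76612 events were, and 25 (1.44%) the other way, where 1.04% were. Of the 58, 46 belonged to ENSOCUG00000025593. Without that gene the counts were 12 of 1566 (0.766%) and 24 of 1566 (1.53%). ENSOCUG00000025593 had 165 events in all, of which 5 were listed in all 6 libraries and 88 in a single library.

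The window's edges were set at round positions. The 3 genes inside its left edge were ENSOCUG00000024275 and ENSOCUG00000022033, given above, and ENSOCUG00000029280 (32193114), with 0.581, 2.67 and 0.633 FPKM in knockout libraries and 1.33, 5.27 and 3.31 FPKM in wild-type libraries. The 3 genes just outside had means of 47.3, 25.2 and 18.8 FPKM in knockout libraries and 31.7, 21.1 and 26.4 FPKM in wild-type libraries. At the right edge the 3 genes inside had means of 18.5, 2.96 and 7.68 FPKM in knockout libraries and 28.9, 3.23 and 9.80 FPKM in wild-type libraries. Those just outside had means of 12.0 and 15.7 FPKM in knockout libraries and 10.1 and 20.3 FPKM in wild-type libraries, and ENSOCUG00000003894, not listed in wild-type replicate 2, had at most 0.755 FPKM.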

How the data were processed

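Per the labels' protocols, Trizol was used on frozen skin and the NEBNext Ultra RNA kit for library preparation. Both bcl2fastq 2.17.1.14 and cutadapt appear in the submitters' processing notes. The build was not given in the sources used here, nor were the aligner, the assembler and the event caller. The authors deposited 1 table per library with the FPKM of each transcript event, and, per the file headers, its locus and Ensembl ID. The lowest listed FPKM is 0.000171 and none is 0, so a missing row, which may be a failed assembly, entered as 0.

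A locus's level was the largest of its summed first-exon, summed last-exon and highest single event FPKM, and loci with the same ID were added. Of the window's IDs, 7 have several loci, all on both strands. Genes that reached 1 FPKM in 3 or more libraries entered a fit of log2(FPKM + 1) by limma 3.58.1 (R 4.3.3), with a mean-variance trend and genotype as the only term, two-sided, with Benjamini-Hochberg adjustment over the whole series at 0.05. Shares of forms, for elements with at least 1 FPKM over all forms in every library, were tested with limma without a trend, adjusted over all 4 kinds. Levels along the window were summed in bins of 1 Mb. Both fits were also run on simulated data, and the rates of recovery and of false calls are not given here.

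The members, lists and tests were chosen with earlier results of these data known. Named genes are those that passed, the 15 most abundant, the 8 largest fold changes per direction among genes without overlap that were listed in all 6 libraries and averaged at least 1 FPKM in 1 group, members of the 3 longest runs, genes at the edges and, of forms, those that passed and the 4 largest differences of each kind. Elements within these genes were described after their values were seen. Lists of gene symbols and cell type markers could not be applied without gene names, and count tests do not apply to FPKM. The sources used here hold no sequence that could be tied to the members, and none is printed.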

Additional observations from a re-analysis of the deposited data

How the results depend on the processing

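Limits first: with 3 libraries a group and no counts, low genes rest on single assembled transcripts, depth is unknown and most calls lie near the threshold. Of the 4 window genes that passed, 1 (ENSOCUG00000022646) passed with a pseudocount of 0.1, with no filter on low values and with genes listed in all 6 libraries alone, and 0 passed at a mean of at least 5 FPKM, with 17 at an unadjusted p under 0.05 (limma). Over the series 61 of 10809, 73 of 14797, 37 of 10835 and 38 of 7077 genes passed in these settings, against 102 of 10809 in the main fit. Library quality weights, which gave knockout replicate 3 a weight of 0.226 against 1.07 to 1.75 elsewhere, gave 7 genes, 4 higher and 3 lower in knockout libraries. Calls rose over the series as well, to 220 of 10809 genes with these weights. Scaling to a common median ratio, the highest single event and each locus on its own gave 4, and first-exon sums 5, of which 2 were higher and 3 lower. The series had 112 of 10782, 97 of 10771, 112 of 10899 and 120 of 9652 passing in these settings. Leaving out 1 library gave 0 to 2 genes, 2 only without knockout replicate 3, with 23 to 28 at an unadjusted p under 0.05. Over the series 8 to 77 genes passed in these fits. With the same genes tested, a setting added after the data were seen, the range was again 0 to 2: ENSOCUG00000022646 and ENSOCUG00000025593 passed without knockout replicate 3, ENSOCUG00000022646 and ENSOCUG00000014955 without knockout replicate 2, and ENSOCUG00000022033 without wild-type replicate 1. Here 29 to 96 of 10809 genes of the series passed. Of forms, 2 passed, 1 with at least 5 FPKM in every library, 3 after an arcsine square-root transform and 1 to 3 when 1 library was left out. Over the series 110 of 16305, 50 of 8003 and 85 of 16305 forms passed, and 49 to 83 when 1 library was left out. Runs numbered 12, with 19 of at least 3 neighbours, 12 after scaling and 8 to 14 when 1 library was left out. Deviations of same-numbered libraries correlated at -0.00, 0.14 and 0.05, and those of differently numbered knockout and wild-type libraries at -0.11 to 0.06. With 3 libraries a group these values cannot decide whether replicate numbers pair the samples. With the replicate block 1 gene passed, ENSOCUG00000025593, and 0 forms passed by limma, with 18 at an unadjusted p under 0.05. Over the series 81 of 10809 genes and 0 of 16305 forms passed with the block. The 960-base last exon of ENSOCUG00000025593 then had an adjusted p of 0.122, its only setting of 9 that did not pass. In the settings tried for single named genes and forms, none reversed: 415 values stayed on their side of the threshold, 61 fell short of it and 5 passed it.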
